A study of Homo sapiens with 16 samples.

Results

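The genes examined here encode growth factor receptors and ligands of the epidermal growth factor receptor (EGFR) system: the receptors EGFR, AXL, MET, PDGFRB and FGFR1, and the ligands AREG, EREG, HBEGF, TGFA and NRG1. They were chosen by name, 10 of the 19970 protein-coding genes annotated, with no threshold on a measured value. At each gene, H3K27ac peaks were recorded within 2 kb of the start site and over its locus, meaning the gene body extended by 50 kb on both sides. H3K27ac ChIP-seq, the sequencing of chromatin pulled down with an antibody to acetylated lysine 27 of histone H3, had been performed in MDA-MB-231 and Hs578T, established cell lines of human triple-negative breast cancer (TNBC). In each line CRISPR control cells and Fn14 knockout (KO) cells were starved for 8 h and then left untreated or given the cytokine TWEAK at 10 ng/ml for 48 h, with fresh cytokine after 24 h. The gene of Fn14, through which TWEAK signals, is TNFRSF12A. There were thus 8 groups, each with 2 replicates, and 16 peak lists in all. The knockouts had been made with a pair of guides in the TLCV2 vector and identified by western blot and Sanger sequencing, with genotyping primers that the study lists for CRISPR clones, and how many clones each line's KO cells came from is not given in the sources used here. The study's methods call its ChIP-seq replicates biological, and the p-values below measure the spread between these pairs of lists. Chromatin came from bulk cells, in which more cells carrying the mark and more mark per cell cannot be told apart.

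Receptor tyrosine kinases sit in the cell membrane, and ligand binding brings receptor molecules together so that they phosphorylate each other and start signalling through the MAPK and PI3K routes. AREG, EREG, HBEGF and TGFA are made as membrane precursors, cut off by sheddases and bind EGFR, while NRG1 binds ERBB3 and ERBB4. H3K27ac marks active promoters and enhancers, the distal elements that raise transcription of genes in the same stretch of chromosome, and basal-like breast cancers are known for high EGFR.

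The 16 lists held 39544 to 47197 peaks covering 64.2 to 88.9 Mb. They contain no reads, so the sequencing depth behind a peak is unknown, and a missing peak means only that none was called. In MDA-MB-231 the median −log10 q-value of the peaks lay at 5.79 to 7.69 in its 4 Fn14 KO lists and at 9.44 to 10.8 in its 4 control lists, and its part in the comparisons of genotypes was not tested. VIM, CD44 and ANXA1, markers of mesenchymal-like TNBC cells, had a start-site peak in all 16 lists, as did the luminal genes GATA3 and KRT8. The hormone receptor genes ESR1 and PGR, the leukocyte gene PTPRC and the endothelial gene PECAM1 had one in 0 lists, and FOXA1 had one in 2. TNFRSF12A itself kept a start-site peak in all 16 lists, which does not check the knockout, since the mark is not the edited sequence.

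Peaks of the 16 lists were merged into regions, and 119 of the 55219 regions seen in at least 2 lists lay at the 10 loci. Of these, 66 (55.5%) had a peak in every list, against 51.3% of all regions. AREG and EREG are neighbours, and 4 of the 119 regions belong to both loci. Within a line and genotype, a gained region was one with a peak in the pair of TWEAK lists and in neither untreated list, and a lost region the reverse. At the 10 loci, 4 regions were gained in control cells of both lines and had no peak in any Fn14 KO list, the clearest appearances of the mark with TWEAK. They lay upstream of AXL and EGFR and in introns of MET and PDGFRB, and those at AXL and MET are shown by their middle 300 bases, printed from the hg38 plus strand. The AXL region lies at chr19:41183576-41183875, between genes and 35.1 kb upstream of the AXL start. The MET region lies at chr7:116679336-116679635, in an intron 6.34 kb downstream of the start. The EGFR region lies between genes, 41.1 kb upstream of EGFR, and the PDGFRB region in an intron 15.3 kb downstream of the start. The widest gain in control cells of 1 line only is shown beside the AXL and MET regions. It lies at chr2:70517407-70517706, in an intron 35.5 kb downstream of the start of TGFA, which is transcribed from the minus strand. The MET promoter (chr7:116671946-116672245, RefSeq on GRCh38.p14) is shown as well. Acetylation at the MET start was also higher with TWEAK when averaged over both lines, a rise called by line only in Hs578T. Capitals would mark matches to the 10-base NF-kB motif or the AP-1 motif TGANTCA on either strand, and the 4 sequences printed here hold none, which says nothing of bases not shown. Over its whole length the AXL region held 0 matches, the MET intron region 1 AP-1 and 0 NF-kB matches, and the TGFA region 1 AP-1 and 2 NF-kB matches, where 64.5% of all regions, of any width, held AP-1 and 25.7% NF-kB.
AXL upstream: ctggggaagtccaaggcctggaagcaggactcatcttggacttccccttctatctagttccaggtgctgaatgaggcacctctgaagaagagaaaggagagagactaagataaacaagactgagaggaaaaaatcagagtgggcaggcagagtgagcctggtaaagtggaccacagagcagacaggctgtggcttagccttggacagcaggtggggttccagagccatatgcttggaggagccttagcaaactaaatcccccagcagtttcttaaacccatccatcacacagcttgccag
MET intron: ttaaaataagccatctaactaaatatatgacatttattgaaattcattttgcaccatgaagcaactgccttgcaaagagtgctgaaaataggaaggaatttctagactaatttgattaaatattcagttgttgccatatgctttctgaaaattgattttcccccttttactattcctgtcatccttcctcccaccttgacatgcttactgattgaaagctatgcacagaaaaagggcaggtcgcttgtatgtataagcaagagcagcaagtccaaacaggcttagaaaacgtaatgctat
TGFA intron: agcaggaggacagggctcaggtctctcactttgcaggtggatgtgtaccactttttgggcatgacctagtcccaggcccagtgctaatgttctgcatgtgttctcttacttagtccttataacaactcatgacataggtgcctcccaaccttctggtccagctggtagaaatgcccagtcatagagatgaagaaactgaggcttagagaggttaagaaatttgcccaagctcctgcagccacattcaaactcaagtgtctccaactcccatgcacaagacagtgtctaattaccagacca
MET promoter: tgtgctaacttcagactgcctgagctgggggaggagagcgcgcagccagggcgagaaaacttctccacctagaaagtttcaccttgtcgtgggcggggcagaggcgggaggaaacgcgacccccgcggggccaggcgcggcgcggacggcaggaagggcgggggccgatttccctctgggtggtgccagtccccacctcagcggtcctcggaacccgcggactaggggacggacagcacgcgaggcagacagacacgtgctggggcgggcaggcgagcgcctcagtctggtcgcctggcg

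Over all 55219 regions, the middle 300 bases held the NF-kB motif in 5.54% and the AP-1 motif in 26.1%. Among the 897 regions gained in control cells of both lines without any Fn14 KO peak, the shares were 27.9% and 30.8%. The 35116 promoters of the RefSeq table, of the same length, held them in 5.91% and 7.71%. A match is a description of the letters and not evidence of a bound factor. A promoter entry was matched for 8 of the 10 genes.

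The 4 regions at AXL, EGFR, MET and PDGFRB were picked for having a peak in the TWEAK-treated control lists and in no other, so their heights are a description. The fold enrichment over background, as the authors' peak caller gave it, was 5.14 and 6.66 in the TWEAK-treated MDA-MB-231 control lists and 7.80 and 8.21 in those of Hs578T at the region upstream of EGFR. It was 4.96, 6.21, 6.27 and 6.96 in the intron of MET, in the same order. Upstream of AXL, which encodes the receptor of GAS6, it was 3.68, 3.77, 4.22 and 5.31. In the intron of PDGFRB, the gene of a platelet-derived growth factor receptor, it was 4.09, 4.17, 3.77 and 3.41. The PDGFRB region lay 1.98 kb from another annotated start of that gene. Together with a region 793.3 kb into NRG1, 5 of the 119 regions (4.2%) were gained in control cells of both lines, against 2.48% of all regions. Those without an Fn14 KO peak were 3.36% of the 119, against 1.62%. The NRG1 region was at 3.88 and 3.84 in MDA-MB-231 and 3.86 and 3.77 in Hs578T with TWEAK, and it also had a peak in each Fn14 KO list of MDA-MB-231 (2.83 to 3.51), with or without TWEAK.

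Counted by line, 7 of the 119 regions were gained with TWEAK in control cells of MDA-MB-231 and 1 was lost, where 5.58% and 4.49% of all regions were. In Hs578T control cells 8 were gained and 2 lost, with 5.09% and 4.65% of all regions as background. The shares gained, 5.88% and 6.72%, stood beside these backgrounds without a test, as did the shares lost, 0.84% and 1.68%. With only the peaks at or above the median −log10 q-value of all lists, 12.1% and 15.2% were gained (background 7.65% and 6.45%) and 4.55% were lost in either line (background 4.83% and 4.36%). Leaving out a list loosens the call, and the share lost rose most without untreated control replicate 1 in MDA-MB-231, to 5.88% (background 8.62%), and without untreated control replicate 2 in Hs578T, to 6.72% (background 8.04%). These shares are descriptions. In MDA-MB-231 Fn14 KO cells 1 region was gained, downstream of MET, and 0 were lost (background 0.321% and 1.35%). In Hs578T Fn14 KO cells 2 were gained, in an intron of HBEGF and in EGFR, and 0 were lost (background 1.05% and 0.829%). The other gains in a single control line were 35.1 kb upstream of AREG and 649.1 kb into NRG1 in MDA-MB-231, and 121.2 kb into EGFR and 722.1 kb into NRG1 in Hs578T. The losses were 26.7 kb into NRG1 in MDA-MB-231, and 50.02 kb downstream of the HBEGF start and at the far end of the NRG1 locus in Hs578T. The 35.1 kb region upstream of AREG was absent from untreated MDA-MB-231 control cells but present in both untreated Hs578T control lists, at 2.95 and 3.26.

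At the 66 regions acetylated in every list, TWEAK-treated and untreated lists were compared by height. The highest fold enrichment in the region was tested on a log2 scale, centred on the median of each list, with limma across all 28337 regions present in every list and Benjamini-Hochberg adjustment over them. This comparison was added after the data were seen, and a gained region cannot enter it. In control cells, averaged over both lines, 31 of the 66 regions rose with TWEAK and 9 fell. Over all 28337 regions 22.8% rose and 24.2% fell, against 47.0% and 13.6% of the 66. The median difference was 0.19 for the 66 regions and -0.02 for all regions, on the log2 scale. By line, 24 rose and 5 fell in MDA-MB-231 (background 17.5% and 18.1%), and 21 rose and 5 fell in Hs578T (background 15.2% and 14.3%). Without replicate 1 of the untreated Hs578T control lists the 21 became 11, and without replicate 2 of the TWEAK-treated ones they became 12. The 5 falls of MDA-MB-231 became 2 without untreated control replicate 1 and 3 without TWEAK-treated control replicate 2, and the 5 of Hs578T became 3 without untreated control replicate 2 or TWEAK-treated control replicate 1. The TWEAK effect differed between the lines at 0 of the 66 regions by limma and at 0 of all regions, with 5 of the 66 at an unadjusted p under 0.05. In Fn14 KO cells 0 of the 66 regions changed by limma (background 0%), with 4 at an unadjusted p under 0.05. For these unadjusted counts of 5 and 4 the shares over all regions are not given here, and nothing is read from them. The TWEAK effect was more positive in control than in Fn14 KO cells at 24 of the 66 regions (background 16.7%) and more negative at 4 (background 16%).

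By position, of 17 regions between genes 10 rose and 1 fell, and of 24 intronic regions 12 rose and 4 fell. Of the 12 regions within 2 kb of the outermost annotated start of a protein-coding gene 2 rose and 1 fell. Another 12 lay within 2 kb of further annotated transcript starts only, and of these 6 rose and 3 fell, against 23 and 5 of the 42 regions with no annotated start within 2 kb. Shares over all regions of the same position are not given here, and no test was made of the difference between positions. These counts thus describe the 10 loci and do not show whether the pattern is particular to them. The regions that rose were spread over 9 of the 10 loci, and AXL had 0.

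**Figure D1:**
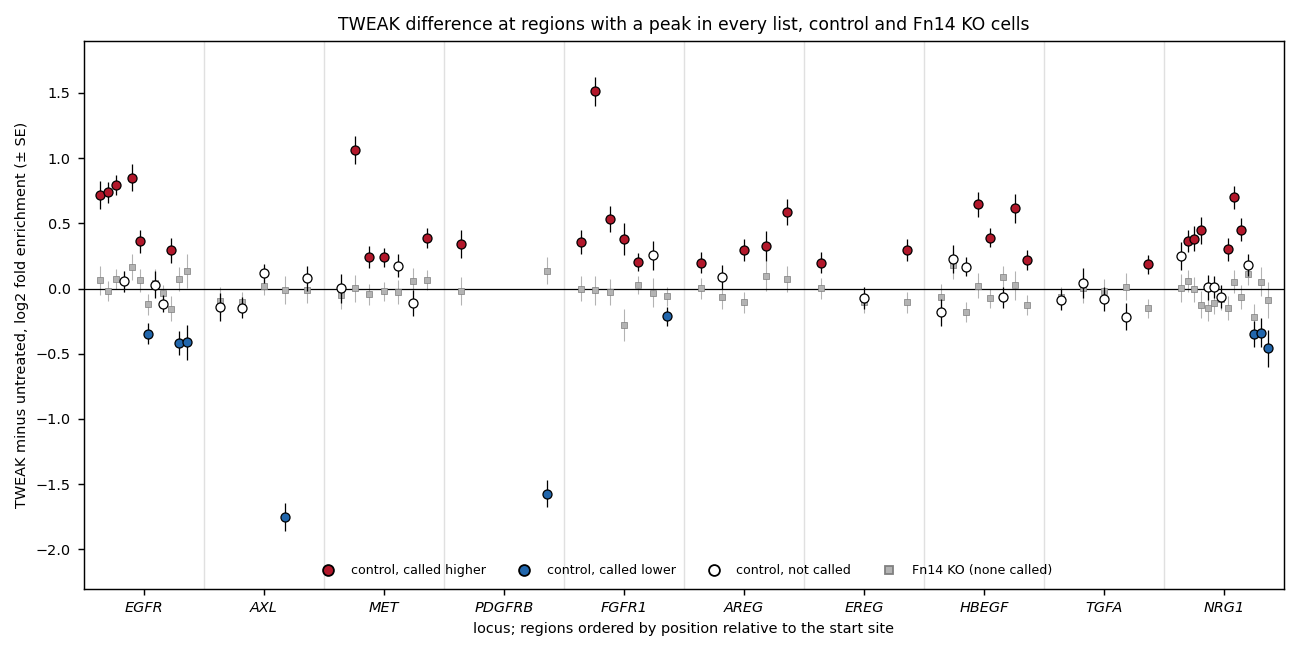
Difference in log2 fold enrichment with TWEAK (y axis, ± SE) at the 66 regions with a peak in every list, grouped by locus and ordered by position (x axis), with circles for control cells and grey squares for Fn14 KO cells. Of the control values 31 were called higher (red) and 9 lower (blue) by limma, and 0 of the Fn14 KO values were called. Regions shared by AREG and EREG are drawn at both loci.

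EGFR, the receptor of AREG, EREG, HBEGF and TGFA, lies at chr7:55019017-55211628 on the plus strand. Of its 12 regions with a peak in every list, 6 rose and 3 fell with TWEAK in control cells. All 3 such regions upstream of the gene rose. The fold enrichment of the region 30.8 kb upstream was 13.52 and 14.16 in untreated and 25.71 and 26.31 in TWEAK-treated control cells of MDA-MB-231. For Hs578T it was 21.74 and 17.38 untreated and 32.03 and 31.52 with TWEAK. The Fn14 KO lists of MDA-MB-231 held 11.27 to 12.77 and those of Hs578T 15.48 to 18.09, so the TWEAK-treated control lists stood above every other list. As group means this was 13.8 ± 0.45 (SD, n = 2) against 26.01 ± 0.42 in MDA-MB-231 and 19.6 ± 3.08 against 31.8 ± 0.36 in Hs578T. The log2 difference was 0.74 ± 0.08 (SE, adjusted p = 4.13e-08), and it exceeded that of Fn14 KO cells by 0.76 ± 0.11 (adjusted p = 1.38e-05). Here and at the regions below, separation of lists is described on folds that are not centred. Without centring, the median of all regions shifted by -0.22 (log2) from control to Fn14 KO cells in untreated MDA-MB-231. The share of all regions with such separation is not given here.

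The region 21.2 kb upstream of EGFR also rose. It was at 9.40 and 10.64 untreated and 18.32 and 21.34 with TWEAK in control cells of MDA-MB-231, and at 12.22 and 11.01 against 19.07 and 19.82 in Hs578T. All Fn14 KO lists were between 8.34 and 11.43, below each TWEAK-treated control list. This was a log2 difference of 0.79 ± 0.08 (adjusted p = 5.64e-09). The region 48.3 kb upstream rose by 0.72 ± 0.11 (adjusted p = 6.48e-06), as did an intronic region 31.5 kb downstream of the start, by 0.85 ± 0.10 (adjusted p = 1.72e-07). In that intron the lists went from 3.14 and 3.78 to 7.14 and 7.57 in MDA-MB-231 and from 4.19 and 3.81 to 6.80 and 6.66 in Hs578T, with Fn14 KO lists between 2.83 and 4.11. The TWEAK-treated control lists were above all others there, while the untreated control lists overlapped with the Fn14 KO lists. Smaller rises were seen 40.9 kb (0.36) and 132.7 kb (0.29) into the gene. The latter was called in neither line by itself (adjusted p = 0.108 in MDA-MB-231 and 0.101 in Hs578T). The regions that fell lay 62.9 kb (-0.35) and 162.9 kb (-0.42) into the gene and 235.4 kb from the start, beyond its end (-0.41). At the EGFR start site itself the log2 difference was 0.06 (adjusted p = 0.59), with folds between 8.62 and 12.9 in all 16 lists.

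**Figure D2:**
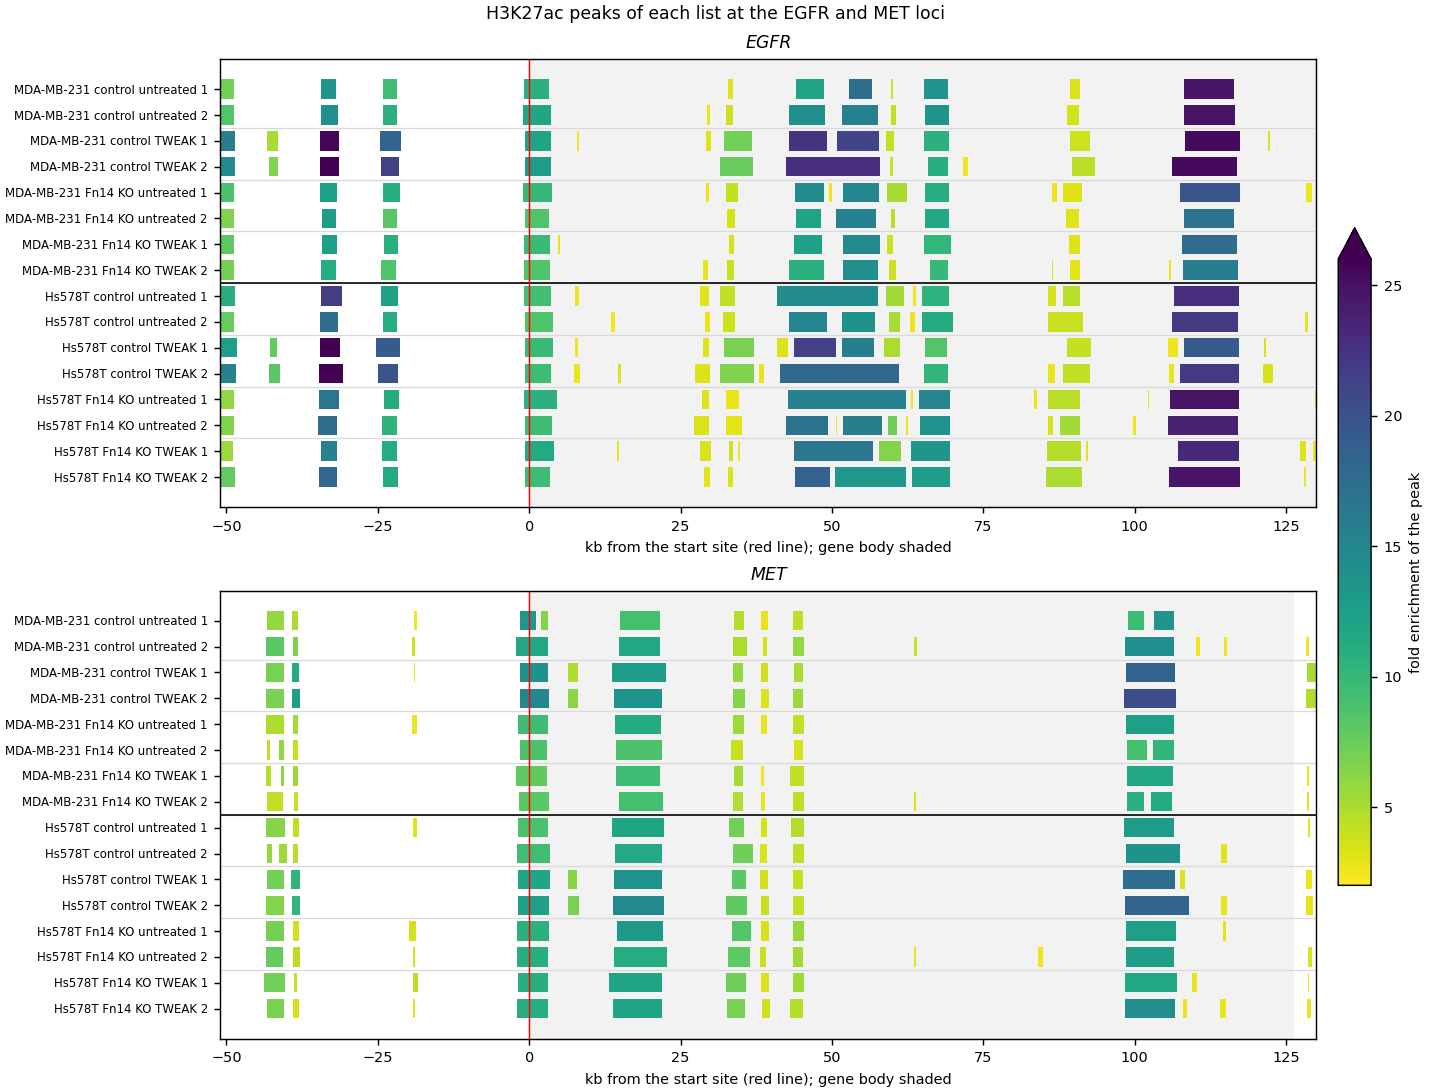
H3K27ac peaks of each of the 16 lists (rows) at EGFR and MET, drawn by distance in kb from the start site (x axis, red line) from 51 kb upstream to 130 kb downstream, with the colour giving the fold enrichment of each peak and the gene body shaded. The peak 41.1 kb upstream of EGFR and the peak 6.34 kb into MET appear in the 4 TWEAK-treated control lists only, and the regions 30.8 and 21.2 kb upstream of EGFR are darkest in those lists. The end of EGFR lies outside the window.

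MET, the receptor of hepatocyte growth factor, lies at chr7:116672196-116798377 on the plus strand. Of its 7 regions 4 rose and 0 fell. The largest difference was at a region 37.9 kb upstream (chr7:116632852-116634328), which lies between genes. It held 5.07 and 6.76 untreated and 11.41 and 12.73 with TWEAK in control cells of MDA-MB-231, and 4.33 and 4.55 against 10.41 and 10.33 in Hs578T. The 8 Fn14 KO lists were between 3.65 and 5.57, and the TWEAK-treated control lists stood apart from all others. The log2 difference was 1.06 ± 0.10 (adjusted p = 7.62e-09) and exceeded that of Fn14 KO cells by 1.06 ± 0.15 (adjusted p = 5.16e-06). The region at the start site rose by 0.24 ± 0.08 (adjusted p = 0.019), that 13.2 kb into the gene by 0.24 ± 0.07 (adjusted p = 0.00983) and that 98.1 kb into the gene, near another annotated start, by 0.39 ± 0.08 (adjusted p = 0.000182). At the last of these the control lists went from 13.49 and 14.28 to 18.42 and 20.45 in MDA-MB-231 and from 12.85 and 13.73 to 17.50 and 18.29 in Hs578T. All TWEAK-treated control lists were again above all others. By line, the start-site region was called in Hs578T (0.35, adjusted p = 0.0235) and not in MDA-MB-231 (0.13, adjusted p = 0.432). Its difference from Fn14 KO cells was not called (0.28, adjusted p = 0.0635). The region 13.2 kb into the gene was called in neither line by itself (adjusted p = 0.0587 in MDA-MB-231 and 0.115 in Hs578T). Its difference from Fn14 KO cells was also not called (0.26, adjusted p = 0.058).

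FGFR1, a receptor of fibroblast growth factors, lies at chr8:38400215-38468834 on the minus strand. Of its 7 regions 5 rose and 1 fell. The region 8.41 kb downstream of the start had 4 other annotated FGFR1 starts within 2 kb and showed the largest rise at the 10 loci. Its fold enrichment was 3.74 and 5.06 untreated and 14.73 and 14.94 with TWEAK in control cells of MDA-MB-231, and 3.93 and 2.90 against 7.92 and 9.96 in Hs578T. The Fn14 KO lists stayed between 3.13 and 4.22, below every TWEAK-treated control list. The log2 difference was 1.51 ± 0.11 (adjusted p = 4.73e-11), larger than in Fn14 KO cells by 1.52 ± 0.16 (adjusted p = 6.05e-08). The neighbouring region at 11.4 kb rose by 0.53 ± 0.10 (adjusted p = 0.000102), those 21.7 and 56.1 kb downstream by 0.38 and 0.20, and that at the start site by 0.36 ± 0.09 (adjusted p = 0.00277). By line, the start-site region was called in MDA-MB-231 (0.50, adjusted p = 0.00433) and not in Hs578T (0.21, adjusted p = 0.238). The region that fell, by 0.21 on the log2 scale, lay at the starts of the neighbours NSD3 and LETM2. This fall was called in neither line by itself (adjusted p = 0.131 in MDA-MB-231 and 0.115 in Hs578T).

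AXL (chr19:41219223-41261766, plus strand) and PDGFRB (chr5:150113839-150155872, minus strand) showed the reverse picture, in that their largest differences were falls inside neighbouring genes. At AXL, 0 of 5 regions rose and 1 fell, a region 77.2 kb downstream of the AXL start within HNRNPUL1. It held 12.30 and 11.85 untreated and 3.60 and 3.22 with TWEAK in control cells of MDA-MB-231, and 11.12 and 7.52 against 3.08 and 3.26 in Hs578T. The log2 difference was -1.75 ± 0.11 (adjusted p = 2.23e-12). Hs578T Fn14 KO lists held 9.71 to 11.49, whereas MDA-MB-231 Fn14 KO lists were at 4.49 to 5.62 with or without TWEAK. In untreated MDA-MB-231 cells the region was thus lower in Fn14 KO than in control cells, by -1.07 ± 0.15 (adjusted p = 3.91e-05). The AXL start site carried the highest fold of its locus in each list, 16.2 to 35.0 for MDA-MB-231 and 19.4 to 23.6 for Hs578T, with a log2 difference of -0.13 ± 0.08 with TWEAK (adjusted p = 0.264).

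At PDGFRB 1 of 2 regions rose and 1 fell. The region that fell lay 88.0 kb downstream of the start within CSF1R, the gene of another receptor of the same class. It went from 14.59 and 11.32 to 4.14 and 4.05 in MDA-MB-231 and from 8.09 and 10.04 to 3.43 and 3.63 in Hs578T control cells, with Fn14 KO lists between 7.48 and 10.10. No list of the TWEAK-treated control groups overlapped with any other. The log2 value fell, with a difference of -1.57 ± 0.10 (adjusted p = 8.08e-12). The intronic region 11.8 kb into PDGFRB rose by 0.34 ± 0.11 (adjusted p = 0.0105). It went from 8.06 and 8.03 to 13.40 and 13.22 in MDA-MB-231, but overlapped in Hs578T, at 11.82 and 8.99 untreated and 11.62 and 10.52 with TWEAK. Within 2 kb of the PDGFRB start a peak was called in 3 of 8 MDA-MB-231 lists and in 8 of 8 Hs578T lists, with folds no higher than 4.16.

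Among the ligand genes, AREG (amphiregulin, chr4:74445136-74455005) and EREG (epiregulin, chr4:74365145-74388749) lie side by side on the plus strand. At AREG 4 of 5 regions rose, and at EREG 2 of 3, both shared with AREG, and 0 fell. The largest rise was 55.0 kb downstream of the AREG start, between genes. There the lists went from 6.35 and 6.19 to 9.48 and 10.32 in MDA-MB-231 and from 7.47 and 6.04 to 10.72 and 10.48 in Hs578T control cells. The Fn14 KO lists were between 4.49 and 6.58, and the TWEAK-treated control lists were above all others. On the log2 scale it rose by 0.59 ± 0.10 (adjusted p = 3.66e-05). Regions 27.6 kb downstream and 25.1 kb upstream of AREG rose by 0.33 and 0.20, and one 25.3 kb downstream of the EREG start by 0.30 ± 0.08 (adjusted p = 0.00407). By line, the 27.6 kb region was called in Hs578T (0.62, adjusted p = 0.00548) and not in MDA-MB-231 (0.04, adjusted p = 0.875). The 25.1 kb region was called in neither line by itself (adjusted p = 0.191 and 0.16). The region downstream of EREG was called in MDA-MB-231 (0.40, adjusted p = 0.00887) and not in Hs578T (0.20, adjusted p = 0.21). Its control lists went from 9.06 and 9.95 to 13.96 and 12.56 in MDA-MB-231 and from 14.00 and 14.54 to 16.14 and 17.97 in Hs578T. The Hs578T Fn14 KO lists, at 14.41 to 16.29, overlapped with the TWEAK-treated control lists of that line.

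HBEGF, heparin-binding EGF-like growth factor, lies at chr5:140332843-140346603 on the minus strand, and 4 of its 8 regions rose and 0 fell. All 4 lay downstream of the gene. Of these 2 were between genes and 2 in the body of PFDN1. The highest of them, 31.8 kb downstream of the start, went from 18.49 and 18.21 to 25.86 and 25.53 in MDA-MB-231 control cells and from 15.38 and 16.71 to 19.83 and 23.76 in Hs578T. In Fn14 KO cells it was at 13.65 to 18.43, below the TWEAK-treated control lists. Its log2 difference was 0.39 ± 0.07 (adjusted p = 8.56e-05). The region 26.6 kb downstream rose by 0.64 ± 0.10 (adjusted p = 4.67e-06), with untreated control lists at 3.29 to 4.09 and TWEAK-treated ones at 5.38 to 6.76. Those at 46.1 and 52.1 kb rose by 0.62 and 0.22. By line, the 52.1 kb region was called in Hs578T (0.29, adjusted p = 0.0465) and not in MDA-MB-231 (0.15, adjusted p = 0.313). The HBEGF start site had a difference of -0.17 ± 0.10 within 2 kb (adjusted p = 0.228).

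TGFA, the gene of transforming growth factor alpha (chr2:70447284-70554193, minus strand), had the fewest rises among the ligands, 1 of 5 regions, and 0 falls. That region, 25.6 kb into the gene, rose by 0.19 ± 0.07 (adjusted p = 0.0386). It was called in neither line by itself (adjusted p = 0.1085 in MDA-MB-231 and 0.269 in Hs578T). Its lists went from 19.25 and 21.84 to 25.69 and 24.76 in MDA-MB-231 and from 18.75 and 17.82 to 20.28 and 22.20 in Hs578T. The Fn14 KO lists ran from 10.68 to 19.83. The TWEAK-treated control lists were above the untreated ones of the same line without overlap. The intronic region 35.5 kb into TGFA, printed above, was at 3.28 in both TWEAK-treated Hs578T control lists, absent from the untreated ones and from all MDA-MB-231 lists, and present in all 4 Hs578T Fn14 KO lists (at least 3.01).

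NRG1 (neuregulin 1, chr8:31639222-32855666, plus strand) is by far the longest of the 10 genes, at 1216 kb. No list had a peak within 2 kb of its annotated start, while all 16 had one at some other annotated start, with folds of 7.37 to 9.66. Of 14 regions 6 rose and 3 fell. The 6 that rose lay 584.5 to 701.1 kb into the gene, and the 3 that fell lay from 938.1 kb on. The region 683.4 kb in was at 13.04 and 11.53 untreated and 23.47 and 21.22 with TWEAK in control cells of MDA-MB-231, and at 12.32 and 10.65 against 17.02 and 19.77 in Hs578T. All Fn14 KO lists were between 9.27 and 12.17, so no TWEAK-treated control list overlapped with another list. It rose by 0.70 ± 0.09 (log2, adjusted p = 4.5e-07), larger than in Fn14 KO cells by 0.65 ± 0.13 (adjusted p = 0.000276). The falls were of -0.35, -0.34 and -0.46, the first called in neither line by itself (adjusted p = 0.0765 in MDA-MB-231 and 0.0556 in Hs578T). At the last of these the control lists overlapped in MDA-MB-231 (4.13 and 3.47 untreated, 4.86 and 3.27 with TWEAK) and not in Hs578T (4.62 and 5.92 against 2.59 and 3.24).

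**Figure D3:**
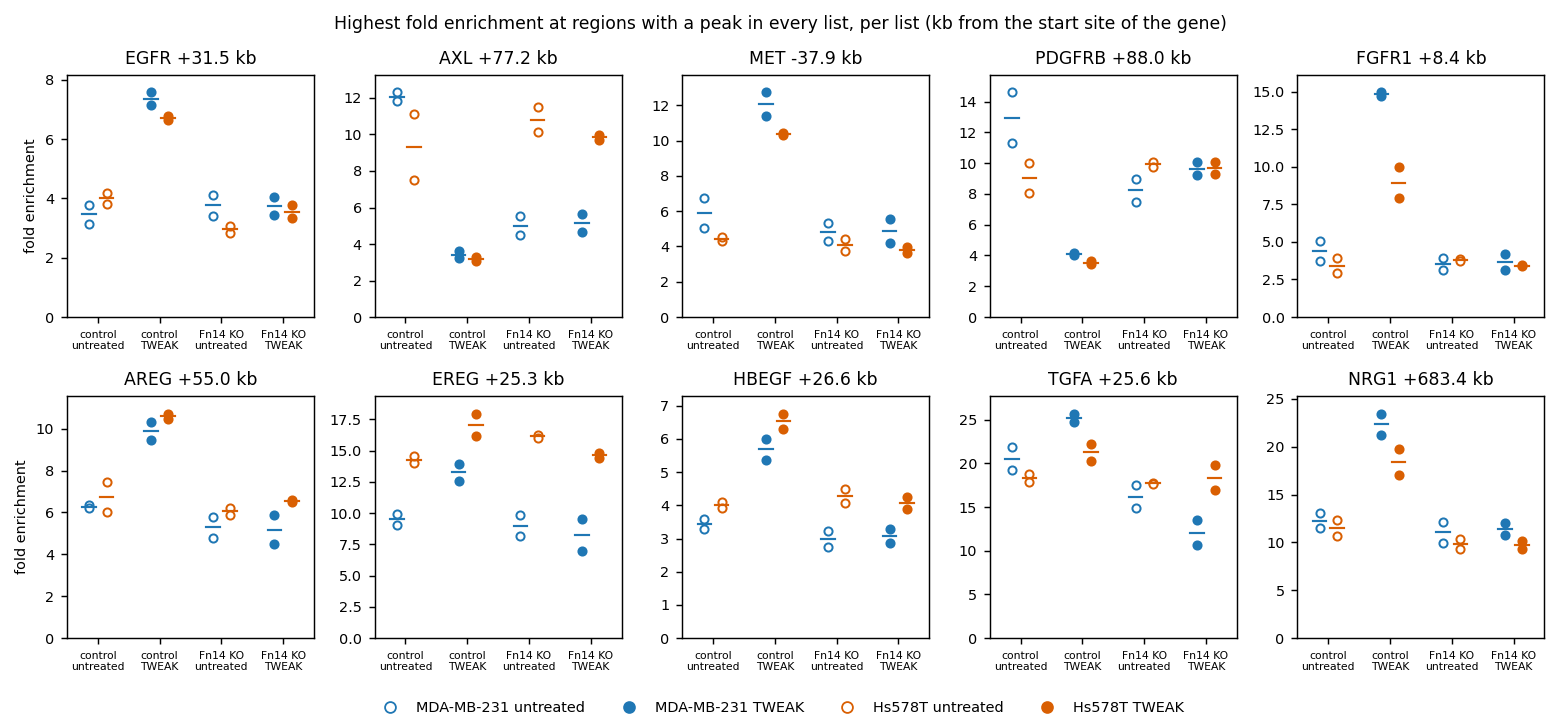
Highest fold enrichment (y axis, from 0) at the region of each gene with the largest TWEAK difference called in control cells, with 1 point per list, open for untreated and filled for TWEAK-treated cells, blue for MDA-MB-231 and orange for Hs578T, and short bars for group means (n = 2). The regions were picked by this difference in the same lists, so their separation is a description. At 8 regions the TWEAK-treated control lists lie above the untreated control lists of their line. At AXL and PDGFRB they lie below, and at AXL the MDA-MB-231 Fn14 KO lists are also low, at 4.49 to 5.62.

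Start sites were also tested on their own. The highest fold within 2 kb of the annotated start was tested for the 10570 genes with a peak there in every list, 8 of the 10 genes, PDGFRB and NRG1 being the exceptions. With TWEAK in control cells 2 of 8 rose (background 13%) and 0 fell. FGFR1 was at 6.24 and 5.85 untreated and 8.44 and 9.76 with TWEAK in MDA-MB-231, and at 5.74 and 5.15 against 6.33 and 6.81 in Hs578T. The groups did not overlap within a line, and the log2 difference was 0.38 ± 0.09 (limma, adjusted p = 0.00397). MET went from 13.26 and 11.74 to 13.93 and 14.96 and from 8.90 and 9.34 to 11.81 and 12.47, a difference of 0.26 ± 0.08 (adjusted p = 0.0225). The MET call was lost without any 1 of 4 lists, namely MDA-MB-231 control replicate 2 of either treatment (0.17 and 0.24), Hs578T untreated control replicate 1 (0.23) and Hs578T TWEAK-treated control replicate 2 (0.24). The FGFR1 call was lost when the highest value over all its annotated starts was used. The other 6 genes had differences between -0.17 and 0.11. By line, MET was called in Hs578T (0.36, adjusted p = 0.0469) and not in MDA-MB-231 (0.15, adjusted p = 0.393). FGFR1 was called in MDA-MB-231 (0.53, adjusted p = 0.00714) and not in Hs578T (0.22, adjusted p = 0.283). The TWEAK effect exceeded that in Fn14 KO cells past the threshold at 1 of 8 genes (background 7.34%), FGFR1, by 0.39 ± 0.12 (adjusted p = 0.0452), a call lost when any of 12 of the 16 lists was left out (adjusted p = 0.055 to 0.117).

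Over whole loci the highest fold in the locus, tested for 16740 genes in a comparison added after the data were seen, rose with TWEAK at 4 of the 10 genes (background 19.2%). These were NRG1 (0.66 ± 0.09, adjusted p = 4.69e-06), MET (0.34 ± 0.07, adjusted p = 0.000763), AREG (0.25 ± 0.07, adjusted p = 0.0109) and EGFR (0.17 ± 0.06, adjusted p = 0.0201). By line, EGFR was at 0.39 in Hs578T (adjusted p = 0.0012) and at -0.05 in MDA-MB-231 (adjusted p = 0.696), a difference between lines of 0.44 ± 0.11 (adjusted p = 0.0997). In control cells of both lines the highest EGFR peak lay 105.6 kb into the gene untreated and 30.8 kb upstream with TWEAK. In MDA-MB-231 these peaks were at 24.83 and 24.85 untreated and 25.71 and 26.31 with TWEAK. The EGFR value thus compares different regions, and the region 30.8 kb upstream itself rose by 0.83 in MDA-MB-231 and 0.65 in Hs578T. AREG was at 0.36 in MDA-MB-231 (adjusted p = 0.0141) and 0.14 in Hs578T (adjusted p = 0.371), while MET and NRG1 were called in each line. In Fn14 KO cells the count was 0 by limma (background 0%). The effect was more positive in control than in Fn14 KO cells at 5 genes (background 13.5%), which were NRG1, AREG, TGFA, HBEGF and MET. Of these, TGFA and HBEGF were not called in control cells (0.14, adjusted p = 0.0573, and 0.13, adjusted p = 0.156). Their values in Fn14 KO cells were -0.17 and -0.18, also not called, and enter the difference as well. The EGFR call was lost without any 1 of 4 lists (0.14 to 0.17, adjusted p = 0.0505 to 0.0764) and the AREG call without any 1 of 2 (0.21 and 0.22). The 4 genes became 2 without replicate 1 of the TWEAK-treated MDA-MB-231 control lists, and the 5 genes became 3 without any 1 of 9 lists.

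The length under peaks, in contrast, passed the test at 0 of the 10 loci with TWEAK in control cells (background 18.9% of 17915 loci, in either direction). The EGFR locus had 39.1 and 46.2 kb under peaks in untreated and 56.7 and 61.9 kb in TWEAK-treated MDA-MB-231 control cells, and 69.6 and 63.0 kb against 66.2 and 76.7 kb in Hs578T. The groups did not overlap in MDA-MB-231 and did in Hs578T. The difference was 10.9 ± 3.7 kb (limma, adjusted p = 0.0551), that of MET 5.01 ± 1.8 kb (adjusted p = 0.064) and that of HBEGF 3.57 ± 1.3 kb (adjusted p = 0.0707). The other 7 loci had adjusted p-values of 0.122 to 0.937. With the length scaled to the covered length of each list, 4 loci were called, all higher: EGFR, MET, HBEGF and NRG1. The share of all loci called on this scale is not given here. In Fn14 KO cells the count was 0 (background 0%), and 0 loci differed between genotypes in the TWEAK effect (background 5.28%). For the genotype difference the scaled length gave 4 and lists trimmed to equal peak number gave 1, with no share of all loci given here. PDGFRB had the least under peaks, 3.07 to 7.42 kb over all 16 lists.

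**Figure D4:**
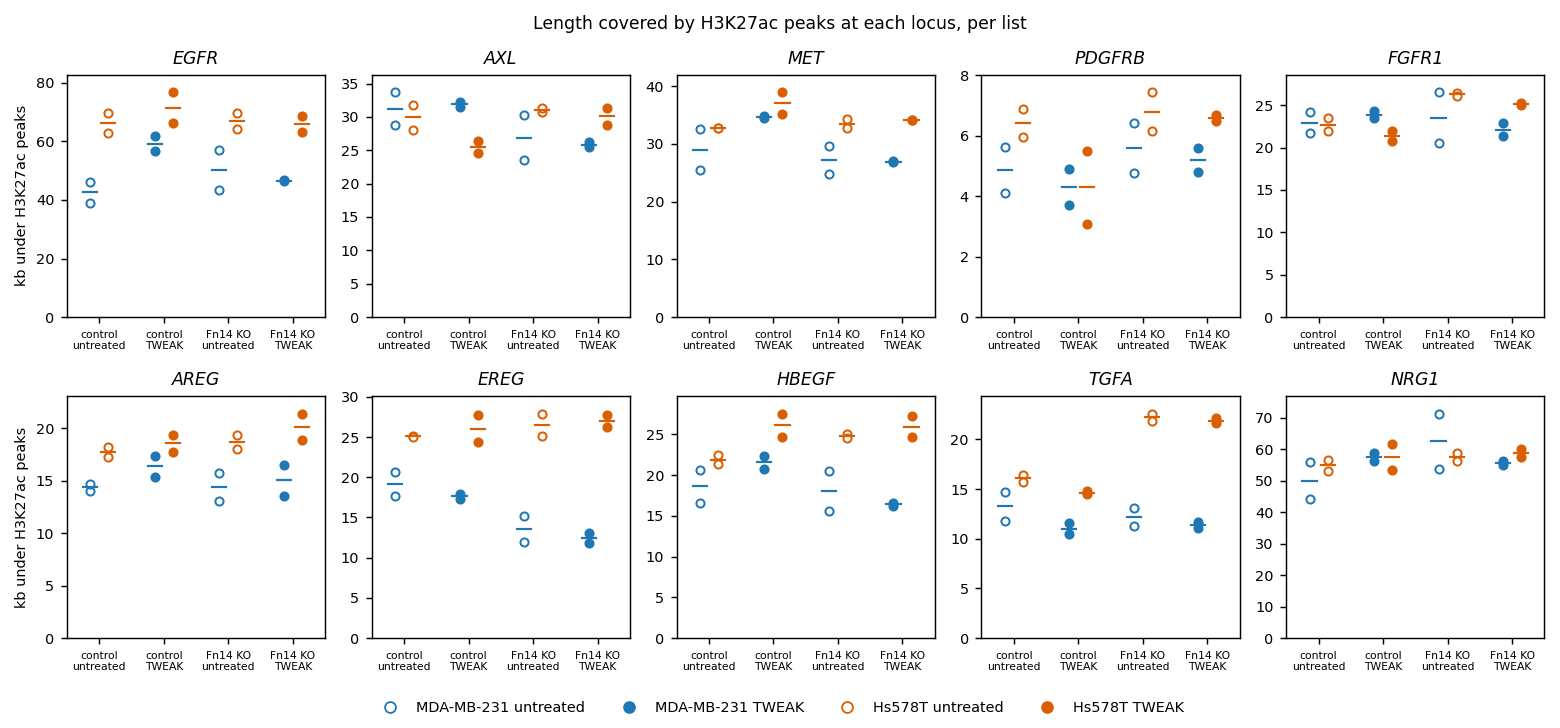
Length under H3K27ac peaks in kb (y axis, from 0) at each of the 10 loci, with 1 point per list, open for untreated and filled for TWEAK-treated cells, blue for MDA-MB-231 and orange for Hs578T, and short bars for group means (n = 2). EGFR rises from 39.1 and 46.2 kb to 56.7 and 61.9 kb in MDA-MB-231 control cells, and TGFA is at 21.6 to 22.6 kb in the 4 Hs578T Fn14 KO lists against 14.5 to 16.5 kb in the Hs578T control lists.

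Fn14 KO and control cells were also compared without TWEAK, with untreated lists that the TWEAK comparisons share. In untreated Hs578T cells the TGFA locus had 22.6 and 21.9 kb under peaks in Fn14 KO and 16.5 and 15.7 kb in control cells, and was the 1 locus of 10 that was higher (background 0.363%). The difference was 6.13 ± 1.12 kb (limma, adjusted p = 0.0243). The call was lost on the log2(kb + 1) scale, with only the peaks at or above the median q-value, with loci extended by 100 kb, with the replicate number as a block and without any 1 of the 4 lists compared. In untreated MDA-MB-231 cells the fold at the EREG start was lower in Fn14 KO cells, the 1 gene of 8 that was (background 7.84%). It was 5.08 and 5.10 in Fn14 KO against 12.93 and 17.23 in control lists, a log2 difference of -1.21 ± 0.15 (adjusted p = 0.000119), and 5.24 and 5.04 against 13.75 and 13.19 with TWEAK. The caller's fold is a mean over the peak, and the start-site peak was joined with the next peaks downstream in some lists and not in others. In the region that spans both, the log2 difference was -0.00. That value is the highest peak of the region, which need not be the peak at the start. In untreated control replicate 1 it was 21.78, against 12.93 at the start. In untreated Fn14 KO replicate 1 it was 17.46 against 5.08, whereas in untreated control replicate 2 both were 17.23. The region value thus does not measure the difference at the start, and the part of peak joining in that difference was not tested. FGFR1 was the 1 gene that was higher (background 5.28%), by 0.41 ± 0.12 (adjusted p = 0.037), or 0.07 without centring, when it was not called. It was also not called without replicate 2 of the untreated control or of the untreated Fn14 KO lists of MDA-MB-231. Of the 66 regions 9 were higher (background 10.1%) and 4 lower (background 13.5%) in untreated MDA-MB-231 Fn14 KO cells. Without centring the counts were 2 and 12, since the median of all regions then shifts by -0.22. For these counts and those that follow, shares over all regions are not given here. Without replicate 1 of the untreated MDA-MB-231 control lists the centred counts were 3 and 1, and without replicate 1 of the Fn14 KO lists 4 and 1. The higher count was 5 without replicate 2 of those control lists and 4 without replicate 2 of those Fn14 KO lists.

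By presence of peaks, 2 of the 119 regions were found only in Fn14 KO and 2 only in control lists of untreated MDA-MB-231 cells, with 2.14% and 2.08% of all regions as background. With TWEAK the counts were 2 and 6, with 3.21% and 6.21% as background. In Hs578T they were 4 and 2 untreated (background 2.02% and 2.25%) and 7 and 9 with TWEAK (background 6.55% and 6.93%). The 4 gained regions described above for AXL, EGFR, MET and PDGFRB are among those found only in TWEAK-treated control cells, in both lines.

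Between the lines, 0 of the 119 regions had a peak in all lists of one line and none of the other (background 0.328% for Hs578T and 0.152% for MDA-MB-231). The length under peaks was higher in Hs578T than in MDA-MB-231 at 6 of the 10 loci (background 47.1%, limma). EGFR had 39.1 to 61.9 kb in the MDA-MB-231 lists and 63.0 to 76.7 kb in those of Hs578T, which did not overlap, a difference of 17.9 ± 2.63 kb (adjusted p = 0.000127). EREG had 11.9 to 20.7 kb against 24.4 to 27.9 kb, also without overlap, a difference of 10.4 ± 0.83 kb (adjusted p = 7.66e-07). TGFA, HBEGF, MET and AREG differed by 6.74, 6.02, 4.92 and 3.73 kb. AXL, FGFR1 and NRG1 had small differences of 0.20, 0.76 and 0.77 kb that turned to -4.10, -2.80 and -7.72 kb when scaled to the covered length of the list, and these were then called lower in Hs578T (adjusted p = 0.000192, 0.000853 and 0.000143). Scaled, MET and AREG were no longer called (0.324 and 1.21 kb), so 4 loci were higher, with AXL, FGFR1 and NRG1 lower. The shares of all loci called on this scale are not given here. Of the 66 regions 15 had a higher fold in Hs578T (background 27.3%) and 16 a lower one (background 31.6%).

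Other genes of the same systems were taken as lists, also chosen with earlier results known. For the length under peaks with TWEAK in control cells, 0 of 9 other ERBB receptor and ligand genes rose and 1 fell, ERBB2, by 2.36 kb, where 7.54% of all loci rose and 11.3% fell. Of 17 other receptor tyrosine kinase genes 14 were tested, 1 rose and 3 fell. IGF1R fell by 5.77 kb, the collagen receptor DDR1 fell by 2.91 kb and TYRO3 fell by 1.82 kb. Of 11 other ligand genes 10 were tested, 2 rose and 3 fell, among them GAS6, the ligand of AXL, which fell by 9.21 kb, and HGF, the ligand of MET, which rose by 1.82 kb. Of 14 sheddase and feedback genes 1 rose, the EGFR inhibitor LRIG1 by 4.74 kb, and 3 fell, with SPRY1, an inhibitor of receptor tyrosine kinase signalling, falling by 11.1 kb. The median difference was 0.02 kb for the ERBB list, -0.79 kb for the receptors, -1.55 kb for the ligands and -0.77 kb for the last list, against 0.59 kb for the 10 genes and -0.20 kb over all loci. In Fn14 KO cells 0 genes of these lists were called by limma, as were 0 of all loci, of which 321 had an unadjusted p under 0.05. At start sites the fold rose at 2 and fell at 2 of 6 receptor genes tested, fell at 1 of 5 ligand genes and rose at 1 and fell at 5 of 13 sheddase and feedback genes, and 0 of 3 ERBB genes were called, with 13% of all start sites rising and 13.7% falling.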

How the data were processed

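H3K27ac ChIP-seq was measured in 16 samples of 8 groups of 2, grouped by their labels. Per the study's methods, the authors used FastQC and Trimmomatic for quality control and trimming, Bowtie2 for alignment to hg38, MACS2 for peaks of each sample against input, and bedtools to take out blacklisted regions. Versions are not given in the sources used here, and the column layout is that of broad calls. Each deposited list holds a score, which is 10 times the −log10 q-value without decimals, a ratio (the fold enrichment, which in broad calling is a mean over the peak and so depends on where peaks were joined), and, on a −log10 scale, a p-value and a q-value. The deposited lists hold no reads, so depth is unknown and no counting interval is given.

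Peaks sharing at least 1 bp were merged over lists, and those present in at least 2 lists were used. Loci and start sites came from GENCODE 44. Covered kb per locus, log2 of the highest fold within 2 kb of the start site, in the locus and in the region were each fitted over all features with limma 3.58.1 in R 4.3.3 (trend, 8 group means, all 16 lists) with Benjamini-Hochberg adjustment and a threshold of 0.05. Fold values were centred on the median of each list. The scripts were tested on simulated data. Motifs were searched on both strands, AP-1 as TGANTCA and NF-kB by its 10-base consensus. The sequences of some gained regions are not reported here. All 10 genes are named throughout, and the regions named at each were picked after their values were seen. Members, gene lists and tests were chosen with earlier results of these data known. The permutation test planned for single loci was not run. DiffBind, which the study used, needs reads and was not run.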

Additional observations from a re-analysis of the deposited data

Results flagged for a closer look

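The TWEAK effect on the start-site fold of FGFR1 differed between control and Fn14 KO cells by 0.388 (log2, limma, adjusted p = 0.0452). Within loci, the TWEAK effect on the highest fold differed between the genotypes by 0.649 at NRG1 (adjusted p = 0.000531), 0.342 at AREG (adjusted p = 0.0226), 0.316 at TGFA (adjusted p = 0.00773), 0.302 at HBEGF (adjusted p = 0.0267) and 0.28 at MET (adjusted p = 0.0494). At TGFA and HBEGF the rise in control cells was not called by itself, nor was the fall in Fn14 KO cells. The MET value lost its call without any 1 of 13 lists (0.216 to 0.305), the HBEGF value without any 1 of 6 (0.223 to 0.302) and the AREG value without any 1 of 4 (0.275 to 0.313). The log2 difference of Fn14 KO minus control cells at the EREG start, untreated, was -1.21 in MDA-MB-231. In Hs578T it was 0.463 and not called (limma, adjusted p = 0.253). These values of opposite sign were 1.67 apart (adjusted p = 0.00023), at a start site where joined and separate peaks alternate between lists. Groups of 2 lists are too small to look for a list that stands apart from its group.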

How the results depend on the processing

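Directions and calls held in most settings. Of 201 shares and counts recomputed under alternatives other than leaving out a list, 142 stayed within 1.5 times. Of 720 recomputed TWEAK differences at the regions called in control cells 671 kept their call, 49 lost it and 0 turned. The 720 include fits that left out an Fn14 KO list and so compare the same control lists. Such fits can move a call through the shared spread but do not test its direction. Depth is unknown, which limits what a missing peak can show, and the cause of the following changes was not tested.

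Shares of all regions under the same setting are given as background. Peaks below the median −log10 q-value of all lists were first left out. The shares of regions at the 10 loci gained and lost with TWEAK became 12.1% and 4.55% in MDA-MB-231 control cells (background 7.65% and 4.83%). They became 15.2% and 4.55% in Hs578T control cells (background 6.45% and 4.36%). In MDA-MB-231 Fn14 KO cells they became 0% and 3.03% (background 0.0384% and 1.92%). In Hs578T Fn14 KO cells the share gained became 0% (background 0.601%). In untreated cells the shares found only in Fn14 KO and only in control became 0% and 3.03% in MDA-MB-231 (background 0.73% and 5.07%). In Hs578T they became 1.52% and 0% (background 1.87% and 1.85%). With TWEAK the share only in control became 21.2% in MDA-MB-231 (background 16.8%) and 15.2% in Hs578T (background 8.77%). When peaks had to cover at least 50% of a region, the share lost with TWEAK was 3.36% in control cells of either line. The background was 6.15% in MDA-MB-231 and 6.79% in Hs578T. In Fn14 KO cells the share lost was 0.84% in either line (background 1.92% in MDA-MB-231 and 1.24% in Hs578T). The share gained in MDA-MB-231 Fn14 KO cells was 0% (background 0.623%). In TWEAK-treated MDA-MB-231 the shares only in Fn14 KO and only in control were 0.84% and 10.9% (background 3.9% and 8.37%). The share only in control of untreated Hs578T was 0.84% (background 2.6%), and that in Hs578T only 0.84% (background 0.42%). With lists trimmed to equal peak number, the share lost was 1.03% in Hs578T control and Fn14 KO cells (background 4.62% and 0.834%). The share gained in Hs578T Fn14 KO cells was 0% (background 0.83%). The share only in control was 4.12% in untreated MDA-MB-231 (background 2.87%) and 0% in untreated Hs578T (background 1.92%). With TWEAK the share only in Fn14 KO was 1.03% in MDA-MB-231 (background 4.13%) and 3.09% in Hs578T (background 6.6%). With loci extended by 20 kb, the share lost in Hs578T control cells was 1.06% (background 4.65%). The share only in Fn14 KO of MDA-MB-231 was 1.06% with TWEAK (background 3.21%) and untreated (background 2.14%). The share only in control was 1.06% in untreated Hs578T (background 2.25%) and 3.19% in TWEAK-treated MDA-MB-231 (background 6.21%). With 100 kb the share lost in MDA-MB-231 Fn14 KO cells was 0.621% (background 1.35%).

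For the counts in this paragraph the shares over all loci or regions are not given here, and they are descriptions. Loci called for covered kb with TWEAK in control cells numbered 1 on the log2(kb + 1) scale, 4 scaled to the covered length of the list, 2 with the peaks above the median, 3 with trimmed lists and 1 with 20 or 100 kb, and for the genotype difference 4 scaled and 1 trimmed. The TGFA call in untreated Hs578T (1) became 0 on the log2 scale, with the peaks above the median and with 100 kb. At start sites, using any annotated start gave 1 gene higher with TWEAK and 0 for the genotype difference. Without centring that difference had 2, and untreated MDA-MB-231 Fn14 KO cells had 3 lower and 0 higher, with 0 higher also when absent peaks counted as 0. Regions called lower without centring were 2 in TWEAK-treated MDA-MB-231 control cells and 2 for the genotype difference, and untreated MDA-MB-231 Fn14 KO cells had 2 higher and 12 lower.

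Differences not called in the reported fit that turned sign with TWEAK in control cells were EREG (0.667 kb scaled, 0.0375 trimmed) and FGFR1 (0.813 scaled, 3.90 with the peaks above the median, 0.217 trimmed, 0.267 without peaks at other starts). Between lines they were AXL (-4.10 scaled, -1.25 with 20 kb, -0.448 without other starts), NRG1 (-7.72 scaled, -0.337 trimmed) and FGFR1 (-2.80 scaled, -0.079 trimmed). Of these the 3 scaled values were called, all lower in Hs578T (adjusted p = 0.000143 to 0.000853).

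With the replicate number as a block (replicate block), 22 of 25 counts stayed within 1.5 times. The TGFA call in untreated Hs578T, the genotype difference at FGFR1 and the higher FGFR1 start in untreated MDA-MB-231 Fn14 KO cells each went from 1 to 0, and the counts of 31 and 9 regions with TWEAK stayed at 31 and 9. Over 12 pairs of groups the deviations of same-numbered lists correlated at -0.715 to 0.237, 2 over 0.1. These 2 were between untreated and TWEAK-treated lists of the same line and genotype (MDA-MB-231 control, 0.237, and Hs578T Fn14 KO, 0.235). The labels do not say whether same-numbered lists were made together, and this was not tested.

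Leaving out 1 list at a time gave, for TWEAK gains and losses, 5.88 to 9.24% and 1.68 to 5.88% in MDA-MB-231 control, 7.56 to 10.9% and 2.52 to 6.72% in Hs578T control, 0.84 to 2.52% and 0 to 8.4% in MDA-MB-231 Fn14 KO, and 2.52 to 5.04% and 0 to 2.52% in Hs578T Fn14 KO cells. Regions only in Fn14 KO and only in control were 1.68 to 6.72% and 2.52 to 5.88% in untreated MDA-MB-231, 1.68 to 2.52% and 5.88 to 9.24% with TWEAK, and 3.36 to 6.72% and 1.68 to 5.04% in untreated Hs578T and 6.72 to 10.1% and 7.56 to 10.9% with TWEAK. For these ranges and the calls below, the matching shares over all features are not given here, and they are descriptions. Covered-kb calls ran from 0 to 3 with TWEAK (3 without either untreated MDA-MB-231 Fn14 KO list), 0 to 1 for the genotype difference, 0 to 1 for TGFA and 6 to 7 between lines. Start-site calls ran from 1 to 2 with TWEAK, 0 to 2 for the genotype difference, and 1 to 2 lower and 0 to 1 higher in untreated MDA-MB-231 Fn14 KO cells. Locus-fold calls ran from 2 to 5 and 3 to 5. Region calls ran from 25 to 32 higher and 6 to 11 lower with TWEAK, 17 to 24 and 2 to 5 in MDA-MB-231, 11 to 21 and 3 to 6 in Hs578T, 21 to 25 and 3 to 5 for the genotype difference, 3 to 10 and 1 to 6 in untreated MDA-MB-231 Fn14 KO cells, and 13 to 17 and 14 to 18 between lines. Covered-kb differences that turned were EREG (-1.14 to 0.525) and FGFR1 (-0.82 to 0.409) with TWEAK and AXL (-0.646 to 1.05) and NRG1 (-1.42 to 2.95) between lines.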
